A study of Danio rerio with 10 samples.

Results

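Expression of 8 zebrafish genes of the p53 response is described here in *islet2a* morphants and mutants. They are the feedback inhibitors *mdm2* and *mdm4*, the arrest genes *cdkn1a*, *ccng1* and *gadd45aa*, the apoptosis genes *bbc3* and *phlda3*, and *rps27l*. The genes were picked by name, with earlier results of these arrays known, so their counts beside those of the whole array are a description. Each was read from a probe set annotated with that gene symbol and no other, and where a gene had more than 1 such probe set, the one with the highest mean over the 10 arrays was used. They are 8 of the 19260 genes that could be named in this way.

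p53 is a transcription factor that is normally kept at a low level because the ubiquitin ligase Mdm2 marks it for degradation. When DNA damage, faulty ribosome production or other stress releases p53 from this control, it activates genes that stop the cell cycle, genes that start apoptosis and *mdm2* itself, so that the response also switches on its own inhibitor. In zebrafish embryos, activation of p53 targets is known as a response to injection of a number of morpholinos, whatever gene they are directed to.

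The study compared 2 ways to remove the function of the motor neuron transcription factor Islet2a. Morphants were wildtype embryos injected with a morpholino that blocks translation of *islet2a* (3 arrays), and mutants were homozygous for an *islet2a* deletion made with TALENs (3 arrays). The controls joined homozygous wildtype siblings of the mutants (2 arrays) with uninjected wildtype embryos (2 arrays), as the methods did. All embryos were 2 days post fertilization, and each array measured RNA of 1 pool of whole embryos, so that for every gene fewer cells that express it and less RNA per cell cannot be told apart. Embryos that received the control morpholino were on 0 of the 10 arrays, so injection itself and block of *islet2a* cannot be told apart in morphants. The titles of the sibling samples call them mock controls, while their descriptions call them siblings, and the descriptions were followed. Whether pools of the same group were separate clutches is not stated, so the p-values cover no more than pool-to-pool spread, which may be technical.

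Signals are log2 values, on which a difference of 1 is a 2-fold change, and the median signal of an array was 4.9 to 5.0. A level of 1 probe set cannot be set against the level of another, so all comparisons are between groups within a gene. Differences were tested with limma, with p-values adjusted over all 75212 probe sets of the array, and a gene was counted as passing at an adjusted p below 0.05. The study's own rule requires a 2-fold change together with an adjusted p below 0.05 in its own 2-group tests. Counts under a 2-fold rule are given beside the others. They join a 2-fold change to limma's adjusted p, so they are not counts under the study's own rule. The *islet2a* transcript (*isl2a*) was at 9.79, 9.96 and 9.91 in morphants, 8.95, 9.12 and 9.13 in mutants, 8.57 and 8.61 in siblings and 8.59 and 8.51 in uninjected wildtype, so it was higher, not lower, in both morphants and mutants (log2 change against controls 1.32 in morphants, adjusted p = 5.18e-05, and 0.50 in mutants, adjusted p = 0.0474, limma). In mutants against siblings, with the 2 kinds of wildtype fitted as separate groups, the *isl2a* change was 0.47 and did not pass (adjusted p = 0.176, limma). The paper's qPCR also found *islet2a* raised in morphants, and it detected no change of *islet2a* in mutants. On the arrays, under its own rule with a 2-fold change, the paper called no gene in mutants against controls. Neither a block of translation nor a short deletion has to lower a transcript, so this signal does not check the labels.

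All 8 genes passed limma's test in morphants, and none passed in mutants. By the 2-group test of the methods 5 of the 8 passed in morphants, without *mdm4*, *bbc3* and *phlda3*. By limma, 7 rose in morphants against controls, among them *rps27l* 5.48-fold, *cdkn1a* 4.15-fold and *mdm2* 3.16-fold, and *mdm4* fell. Over all probe sets of the array, 3.59% passed limma's test as higher and 1.57% as lower in this comparison. These shares are no baseline for the 2-group count, for which none is given. Of the 7, 5 also reached a 2-fold rise (*mdm2*, *cdkn1a*, *bbc3*, *phlda3* and *rps27l*), as did 0.67% of all probe sets. Among these, *bbc3* and *phlda3* missed the 2-group test as re-run here. They did not meet the study's rule in this re-run, and the study's own lists of called genes were not compared. The median log2 change of the 8 genes was 1.17, and that of all probe sets was -0.02. In mutants against controls, 0 of 8 passed, and 0 of 8 had an unadjusted p below 0.05. Of all probe sets 0.338% passed there, and 13.4% had an unadjusted p below 0.05. The 3 morphant arrays lay wholly outside the 4 control arrays for 8 of 8 genes, which held for 17.8% of all probe sets. The mutant arrays overlapped the controls for each of the 8, while 12.1% of all probe sets did not overlap there. Both comparisons use the same 4 control arrays.

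**Figure D1:**
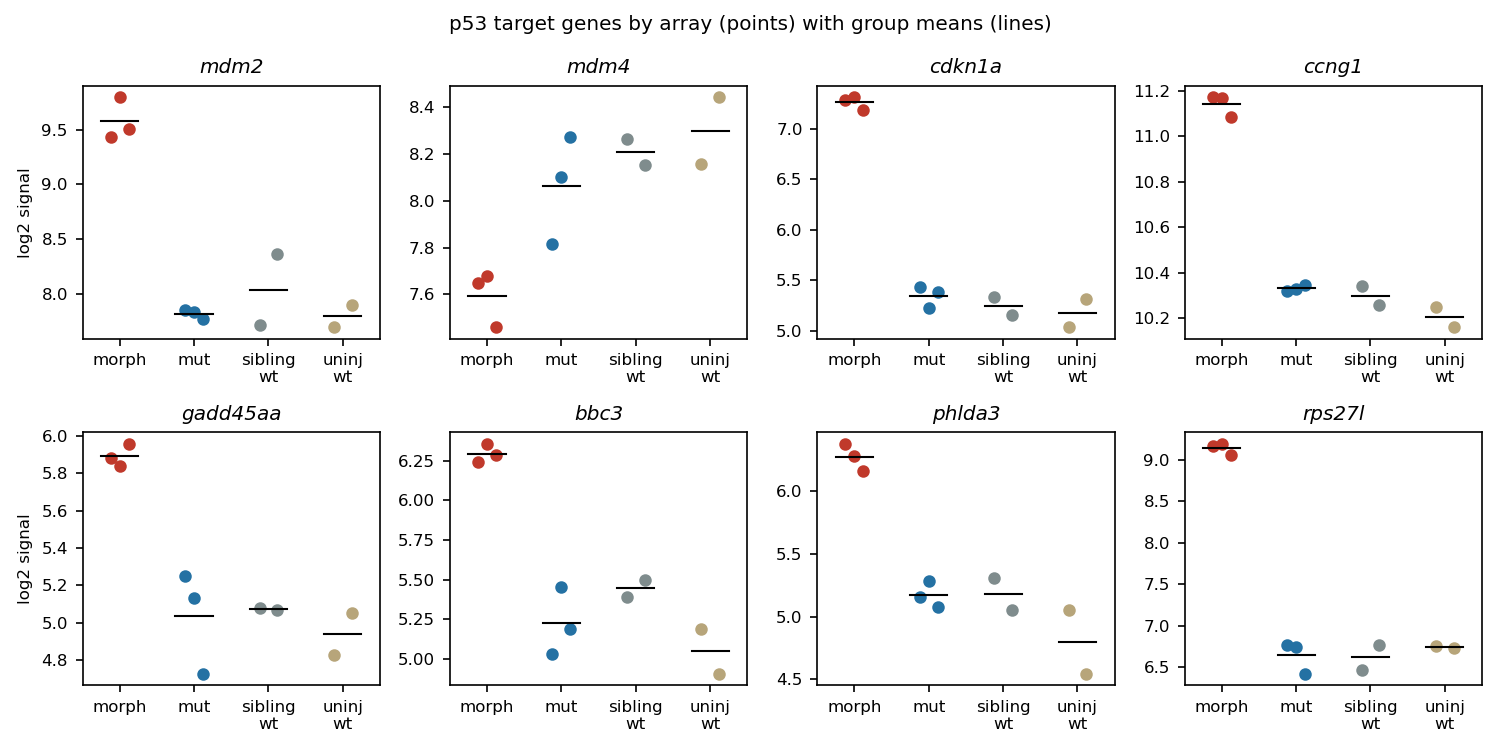
Log2 signal (vertical axis, a different range in each panel) of the 8 genes on each array, with morphants (morph), mutants (mut), sibling wildtype and uninjected wildtype from left to right; points are arrays and lines are group means. The 3 morphant points lie above all 7 other points in 7 panels and below them for *mdm4*, and mutant points overlap those of the controls in all 8 panels.

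*mdm2*, the ubiquitin ligase that limits p53 and is itself a target of p53, had a log2 signal of 9.44, 9.79 and 9.51 in the 3 morphant pools. It was at 7.85, 7.84 and 7.77 in mutants, 7.71 and 8.36 in siblings and 7.70 and 7.90 in uninjected wildtype. All morphant pools were more than 1 log2 unit above every other pool, mutants were nearly identical to each other, and the second sibling pool was the highest outside the morphants. The mean was 9.58 ± 0.188 in morphants (SD, n = 3) and 7.92 ± 0.309 in controls (SD, n = 4), a log2 change of 1.66 (standard error 0.159, adjusted p = 0.000495, limma). This rise had rank 31 among the 19260 genes. In mutants the mean was 7.82 ± 0.0423 (SD, n = 3) and the change against controls was -0.10, with a 95% interval of -0.45 to 0.26.

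*mdm4*, a relative of Mdm2 that binds p53 and blocks its activity as a transcription factor, went the other way. Its signal was 7.65, 7.68 and 7.46 in morphants, 7.82, 8.10 and 8.27 in mutants, 8.27 and 8.15 in siblings and 8.16 and 8.44 in uninjected wildtype. The morphants were the 3 lowest pools, although the first mutant pool lay only slightly above them. The log2 change in morphants against controls was -0.66 (standard error 0.124, adjusted p = 0.0143, limma), and in mutants it was -0.19, with a 95% interval of -0.46 to 0.09. The fall was the least stable of the 8 changes. In fits that left out the arrays of the other kind of wildtype, it missed the threshold (adjusted p = 0.0724 against uninjected and 0.0645 against siblings, limma). It also missed the threshold without morphant replicate 3 (adjusted p = 0.0575, limma).

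*cdkn1a*, which encodes the cyclin-dependent kinase inhibitor p21, was at 7.29, 7.31 and 7.18 in morphants. In mutants it was at 5.43, 5.22 and 5.39, in siblings at 5.33 and 5.15, and in uninjected wildtype at 5.03 and 5.31. The morphant pools were tightly grouped and far above the rest, and the other 7 pools formed a single band. The log2 change in morphants against controls was 2.05 (standard error 0.098, adjusted p = 1.07e-05, limma), rank 21 among 19260 genes. In mutants it was 0.14, with a 95% interval of -0.08 to 0.36.

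*ccng1*, the gene of cyclin G1, a p53 target in mammals that takes part in growth arrest and in feedback through Mdm2, was the least variable of the 8. Its signal was 11.17, 11.17 and 11.08 in morphants, 10.32, 10.33 and 10.34 in mutants, 10.34 and 10.26 in siblings and 10.25 and 10.16 in uninjected wildtype. The standard deviation between arrays of a group, pooled over the groups, was 0.0461, and only 0.827% of all probe sets had a smaller one. So its rise of 0.89 in morphants (1.85-fold, standard error 0.075, adjusted p = 0.000281, limma) was small beside that of *cdkn1a* but large beside its own spread. In mutants the change was 0.08, with a 95% interval of -0.09 to 0.25.

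*gadd45aa*, of the Gadd45 family of stress proteins that act in growth arrest and DNA repair, was at 5.88, 5.84 and 5.96 in morphants. Mutants had 5.25, 5.13 and 4.73, siblings 5.08 and 5.07, and uninjected wildtype 4.83 and 5.05. Morphants were again the highest pools, and the third mutant pool and the first uninjected pool were the lowest. The log2 change in morphants against controls was 0.89 (1.85-fold, standard error 0.126, adjusted p = 0.00359, limma), against 0.03 in mutants, with a 95% interval of -0.25 to 0.31.

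*bbc3* encodes Puma, a protein that p53 uses to start apoptosis at the mitochondria. Its signal was 6.24, 6.36 and 6.29 in morphants, 5.03, 5.45 and 5.19 in mutants, 5.39 and 5.50 in siblings and 5.19 and 4.91 in uninjected wildtype. Every morphant pool was above every other pool, and both siblings were above both uninjected pools. The log2 change in morphants against controls was 1.05 (2.07-fold, standard error 0.147, adjusted p = 0.00338, limma), and it missed the threshold by the 2-group test of the methods (adjusted p = 0.062). In mutants it was -0.02, with a 95% interval of -0.35 to 0.30.

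*phlda3*, known in mammalian cells as a p53 target that holds back the survival kinase Akt, was at 6.38, 6.28 and 6.16 in morphants and at 5.16, 5.28 and 5.08 in mutants. Siblings had 5.31 and 5.06 and uninjected wildtype 5.06 and 4.54. The second uninjected pool was the lowest of the 10 and widened the spread of the controls, whose mean was 4.99 ± 0.32 (SD, n = 4), against 6.27 ± 0.108 in morphants (SD, n = 3). The log2 change in morphants was 1.28 (2.43-fold, standard error 0.157, adjusted p = 0.0016, limma), and this too missed the threshold by the 2-group test (adjusted p = 0.0653). In mutants it was 0.18, with a 95% interval of -0.17 to 0.53, the highest upper bound of the 8 genes.

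*rps27l*, a ribosomal protein gene closely related to *rps27* and a p53 target in human cells, had the largest change of the 8. Its signal was 9.16, 9.19 and 9.06 in morphants, 6.77, 6.75 and 6.43 in mutants, 6.47 and 6.77 in siblings and 6.76 and 6.74 in uninjected wildtype. The morphants lay more than 2 log2 units above every other pool, a change of 2.45 against controls (5.48-fold, standard error 0.113, adjusted p = 8.16e-06, limma), rank 14 among 19260 genes. A second probe set for *rps27l* was at 6.59, 6.20 and 6.23 in morphants, 4.76, 4.68 and 4.84 in mutants, 4.80 and 4.74 in siblings and 4.86 and 4.69 in uninjected wildtype. Its rise was smaller (2.96-fold, adjusted p = 8.78e-05, limma), with the same separation of the groups. The related genes *rps27.1* and *rps27.2* did not rise, with log2 changes of -0.41 (adjusted p = 0.0279, a fall) and -0.03 (adjusted p = 0.92), and how far probes bind transcripts of the related genes was not tested. In mutants *rps27l* changed by -0.04, with a 95% interval of -0.29 to 0.21.

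**Figure D2:**
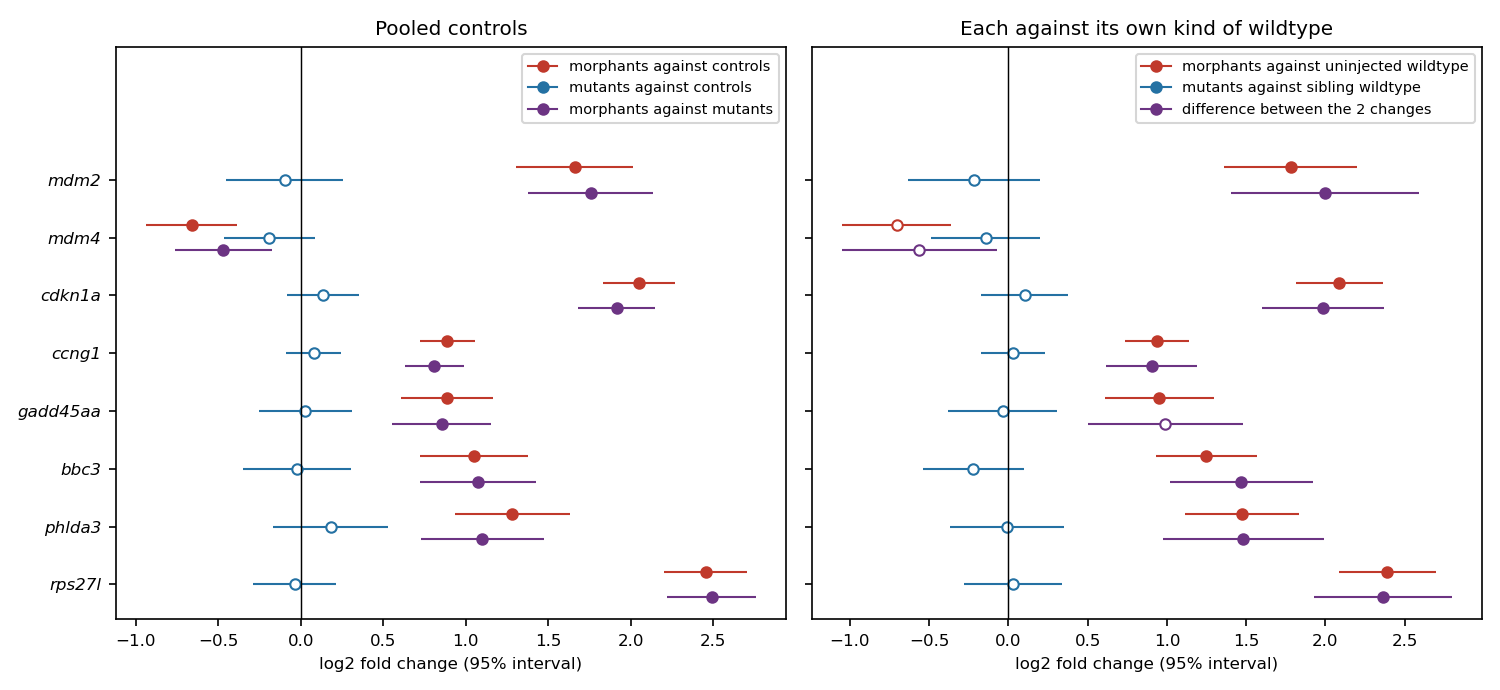
Log2 fold change with its 95% interval (horizontal axis) of the 8 genes, on the left for morphants and mutants against pooled controls and for morphants against mutants, on the right against each condition's own kind of wildtype, with the difference between those changes; filled points have a limma adjusted p below 0.05 and open points do not. All intervals of mutants hold 0 on the left, and 6 of the 8 differences on the right are filled.

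The intervals against pooled controls give the range of change in mutants that the fit allows. All 8 intervals held 0, and over the 8 genes they ran from 0.725-fold to 1.44-fold of the controls. A change of the size seen in morphants lay outside that gene's own interval for each of the 8. The narrowest was that of *ccng1*. Against siblings, in the fit with the kinds of wildtype as separate groups, the intervals reached lower, to 0.644-fold for *mdm2* and 0.687-fold for *bbc3*. Mean control signals of *cdkn1a* (5.21), *gadd45aa* (5.01), *bbc3* (5.25) and *phlda3* (4.99) were near the array median. Whether a fall could be seen at such signals was not tested.

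Compared directly, morphants and mutants differed in all 8 genes. Against mutants, 7 were higher and *mdm4* was lower in morphants, while 7.5% of all probe sets passed as higher and 6.11% as lower. The log2 difference was 2.49 for *rps27l* (5.62-fold, adjusted p = 7.79e-06, limma), 1.91 for *cdkn1a* (3.77-fold, adjusted p = 1.96e-05) and 1.76 for *mdm2* (3.38-fold, adjusted p = 0.000358). It was 1.1 for *phlda3*, 1.07 for *bbc3*, 0.86 for *gadd45aa* and 0.81 for *ccng1*, with adjusted p-values of 0.000404 to 0.00334, and these were 2-fold or more for *phlda3* and *bbc3*. In all, 5 of the 8 were at least 2-fold higher in morphants, as were 1.64% of all probe sets. The difference of -0.47 for *mdm4* was close to the threshold (adjusted p = 0.0415). It missed the threshold when any 1 of 7 arrays was left out, namely morphant 1, 2 or 3, mutant 2 or 3, sibling 1 or uninjected 1 (adjusted p = 0.0531 to 0.14, limma), and by the 2-group test of the methods (adjusted p = 0.165), where that of *gadd45aa* did too (adjusted p = 0.0782). The 2 groups did not overlap for 8 of 8 genes, as for 35.4% of all probe sets.

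Morphants had uninjected wildtype and mutants had their siblings as the nearest control, so each was also set against its own kind of wildtype. Against uninjected wildtype, 7 of 8 genes rose in morphants, with log2 changes from 0.94 for *ccng1* (adjusted p = 0.00239) to 2.39 for *rps27l* (adjusted p = 0.000132, limma), where 1.52% of all probe sets passed as higher. *mdm4* was at -0.71 and missed the threshold in this fit, which kept the sibling arrays as a separate group (adjusted p = 0.0544, limma). Against siblings, 0 of 8 passed in mutants, where 0.165% of all probe sets passed. These changes ran from -0.22 for *mdm2* and *bbc3* to 0.10 for *cdkn1a*, with adjusted p-values of 0.662 to 0.993, and 0 had an unadjusted p below 0.05, where 10.1% of all probe sets did. The 2 kinds of wildtype themselves were not separated by any of the 8 genes at the threshold, where 0 of 8 passed, 1 (*bbc3*, higher in siblings) had an unadjusted p below 0.05, and of all probe sets 0.0319% passed and 3.22% were higher in siblings at that unadjusted p. The siblings exceeded uninjected wildtype by 0.40 for *bbc3* (adjusted p = 0.655) and 0.38 for *phlda3* (adjusted p = 0.723).

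The difference between these changes, which shares no array between its arms, passed the test for 6 of 8 genes, each as a larger change in morphants, while 0.622% of all probe sets passed in that direction. It was 2.36 for *rps27l* (adjusted p = 0.00166, limma), 2.00 for *mdm2* (adjusted p = 0.0171), 1.99 for *cdkn1a* (adjusted p = 0.00246), 1.48 for *phlda3* (adjusted p = 0.0279), 1.47 for *bbc3* (adjusted p = 0.02) and 0.90 for *ccng1* (adjusted p = 0.0225). *gadd45aa* (0.99, adjusted p = 0.0769) and *mdm4* (-0.56, adjusted p = 0.25) did not pass. With 2 arrays of each wildtype the count was sensitive to single arrays, and it was below 6 whichever array was left out. It was 2 without mutant replicate 3, 3 without any 1 of morphant replicates 1 and 3 and sibling replicates 1 and 2, and 3 with the replicate number as a block. *cdkn1a* and *rps27l* passed in each of these.

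**Figure D3:**
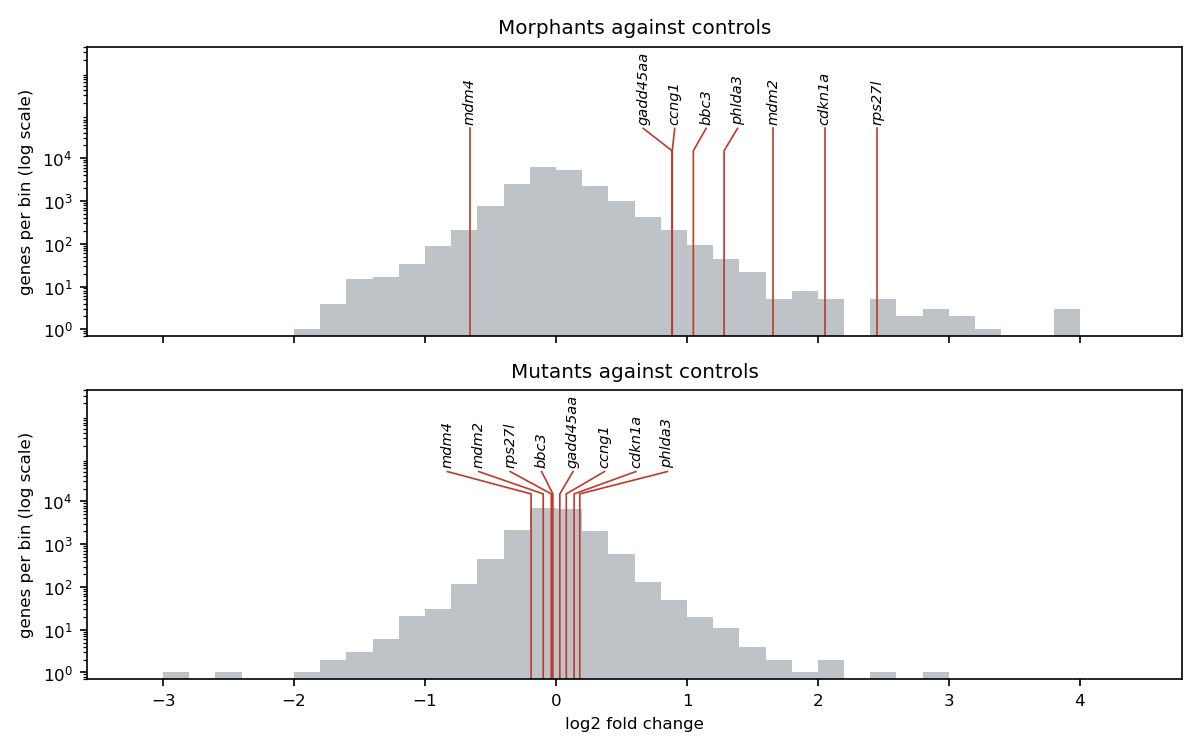
Number of genes per bin of log2 fold change (bins of 0.2, vertical axis on a log scale) for the 19260 genes, above for morphants against controls and below for mutants against controls, with the 8 genes marked by red lines. In morphants *rps27l*, *cdkn1a* and *mdm2* lie in the far right tail and *mdm4* in the left flank, and in mutants all 8 lie within 0.2 of 0.

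Among the 19260 genes ordered by their change in morphants against controls, *rps27l* was at rank 14, *cdkn1a* at 21, *mdm2* at 31, *phlda3* at 77, *bbc3* at 163, *ccng1* at 305 and *gadd45aa* at 310 from the top. *mdm4* was at rank 271 from the bottom. In mutants the 8 genes lay at ranks 3167 to 16348.

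The 8 genes varied together over the 10 arrays. Pearson's r was 0.89 to 0.99 over the 21 pairs without *mdm4* and -0.90 to -0.82 over the 7 pairs with it. These values describe arrays of which 3 are morphants and rest on the difference between the groups. After each group's mean was taken out, r over the pairs without *mdm4* ran from -0.82 to 0.81 with a median of 0.06. With 2 or 3 arrays in a group, these values cannot show whether pools with more of 1 of these transcripts also had more of the others. The mean of the 8 genes, each centred on its own mean over the arrays, was 0.84, 0.89 and 0.78 in morphants and -0.36, -0.30 and -0.41 in mutants, against -0.32 and -0.27 in siblings and -0.44 and -0.43 in uninjected wildtype. The 3 morphant pools were alike in this mean, and the mutants lay among the controls.

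Most other genes of the p53 pathway did not pass the test. Of a list of 60 further pathway genes, 53 were measured, and in morphants against controls 8 rose, 2 fell and 43 did not pass, with a median log2 change of 0.02. The share that rose, 15.1%, was above the 3.59% of all probe sets, and the share that fell, 3.77%, above 1.57%. These shares are not of like sets, since only 20806 of the 75212 probe sets had 1 gene symbol. The list was also written with earlier results of these arrays known. In mutants 0 rose, 1 fell and the median was -0.07, where 0.179% of all probe sets fell. In morphants against mutants 12 rose and 3 fell, with a median of 0.14, where 7.5% of all probe sets were higher and 6.11% lower. Under the 2-fold rule, 2 rose in morphants against controls (*gadd45ab* and *casp8*), as did 0.67% of all probe sets.

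Of the p53 relatives, *tp63*, which is needed in the epidermis, changed by -0.13 in morphants and *tp73* by 0.02, and neither passed. Among upstream regulators, *rchy1*, the gene of the p53 ubiquitin ligase Pirh2, rose in morphants by 0.56 (adjusted p = 0.0124, limma), and the damage kinase *atr* was higher in morphants than in mutants by 0.40 (adjusted p = 0.0486).

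The arrest and checkpoint genes held changes in both directions. *gadd45ab*, a paralog of *gadd45aa*, was at 6.85, 6.48 and 6.59 in morphants, 5.24, 5.51 and 5.16 in mutants, 5.29 and 5.38 in siblings and 5.36 and 5.27 in uninjected wildtype. Its morphant pools lay far above the rest, a change of 1.31 against controls (adjusted p = 0.000318, limma), larger than that of *gadd45aa*. Another family member, *gadd45ba*, rose by 0.78 (adjusted p = 0.0149), and *plk3*, a stress kinase of the polo family, by 0.55 (adjusted p = 0.00707). *ccng2*, the gene of cyclin G2 and the closest relative of *ccng1*, fell. It was at 7.61, 8.06 and 7.91 in morphants, 8.43, 8.43 and 8.56 in mutants, 8.68 and 8.88 in siblings and 8.68 and 8.73 in uninjected wildtype, a change of -0.89 in morphants (adjusted p = 0.0019). *btg2*, an antiproliferative p53 target in mammals, was the gene of the list that fell in mutants, by 0.67 (adjusted p = 0.0476). Its signal was 9.34, 9.41 and 9.58 in morphants and 9.19, 8.78 and 9.07 in mutants, against 9.71 and 9.77 in siblings and 9.55 and 9.72 in uninjected wildtype, so that *btg2* was lowest in mutants. It lost its call when any array other than mutant replicate 1 was left out, so 0 genes of the list then passed in mutants. The kinase inhibitor gene *cdkn1bb* was lower in morphants than in mutants (-0.48, adjusted p = 0.0397). It had 2 probe sets, of which the one with the higher mean was read, and the change of the other is not given.

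Among apoptosis genes, *casp8*, the initiator caspase of death receptor signalling, was at 7.25, 7.55 and 7.19 in morphants, 6.06, 6.16 and 5.79 in mutants, 6.19 and 6.21 in siblings and 5.97 and 6.24 in uninjected wildtype. Its change in morphants against controls was 1.18 (adjusted p = 0.000862, limma). The death receptor gene *fas* was at 5.54, 5.40 and 5.21 in morphants, 4.38, 4.34 and 4.52 in mutants, 4.59 and 4.25 in siblings and 4.44 and 4.31 in uninjected wildtype, a change of 0.98 (adjusted p = 0.00118). For both genes all morphant pools were above all others. Of the genes that act with Puma at the mitochondria, *pmaip1* (Noxa) changed by 0.30 (adjusted p = 0.33) and *baxa* by 0.37, and neither passed. *baxb* was higher in morphants than in mutants by 0.49 (adjusted p = 0.0127), with mutants as the lower group. *tp53inp1*, a p53 target in mammals, fell by 0.52 in morphants (adjusted p = 0.0196). *fas* and *tp53inp1* each had 2 probe sets, of which the one with the higher mean was read, and the change of the other is not given.

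Of the repair and metabolism genes, *sesn2*, which encodes a sestrin that restrains growth signalling under stress, was at 8.50, 8.24 and 8.30 in morphants, 7.57, 7.54 and 7.70 in mutants, 7.53 and 7.59 in siblings and 7.03 and 7.45 in uninjected wildtype. It rose by 0.95 in morphants against controls (adjusted p = 0.00375, limma), and *sesn3* rose by 0.58 (adjusted p = 0.0359). *tigarb*, of a family that limits glycolysis, was higher in morphants than in mutants by 0.68 (adjusted p = 0.0414). The difference between the changes, each against its own wildtype, passed for *gadd45ab* (1.35, adjusted p = 0.0263) and *casp8* (1.42, adjusted p = 0.028) and for no other of the 53. The count of 10 genes that passed in morphants against controls was 6 without morphant replicate 1, and the 15 in morphants against mutants were 9 without morphant replicate 1 or 3.

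**Figure D4:**
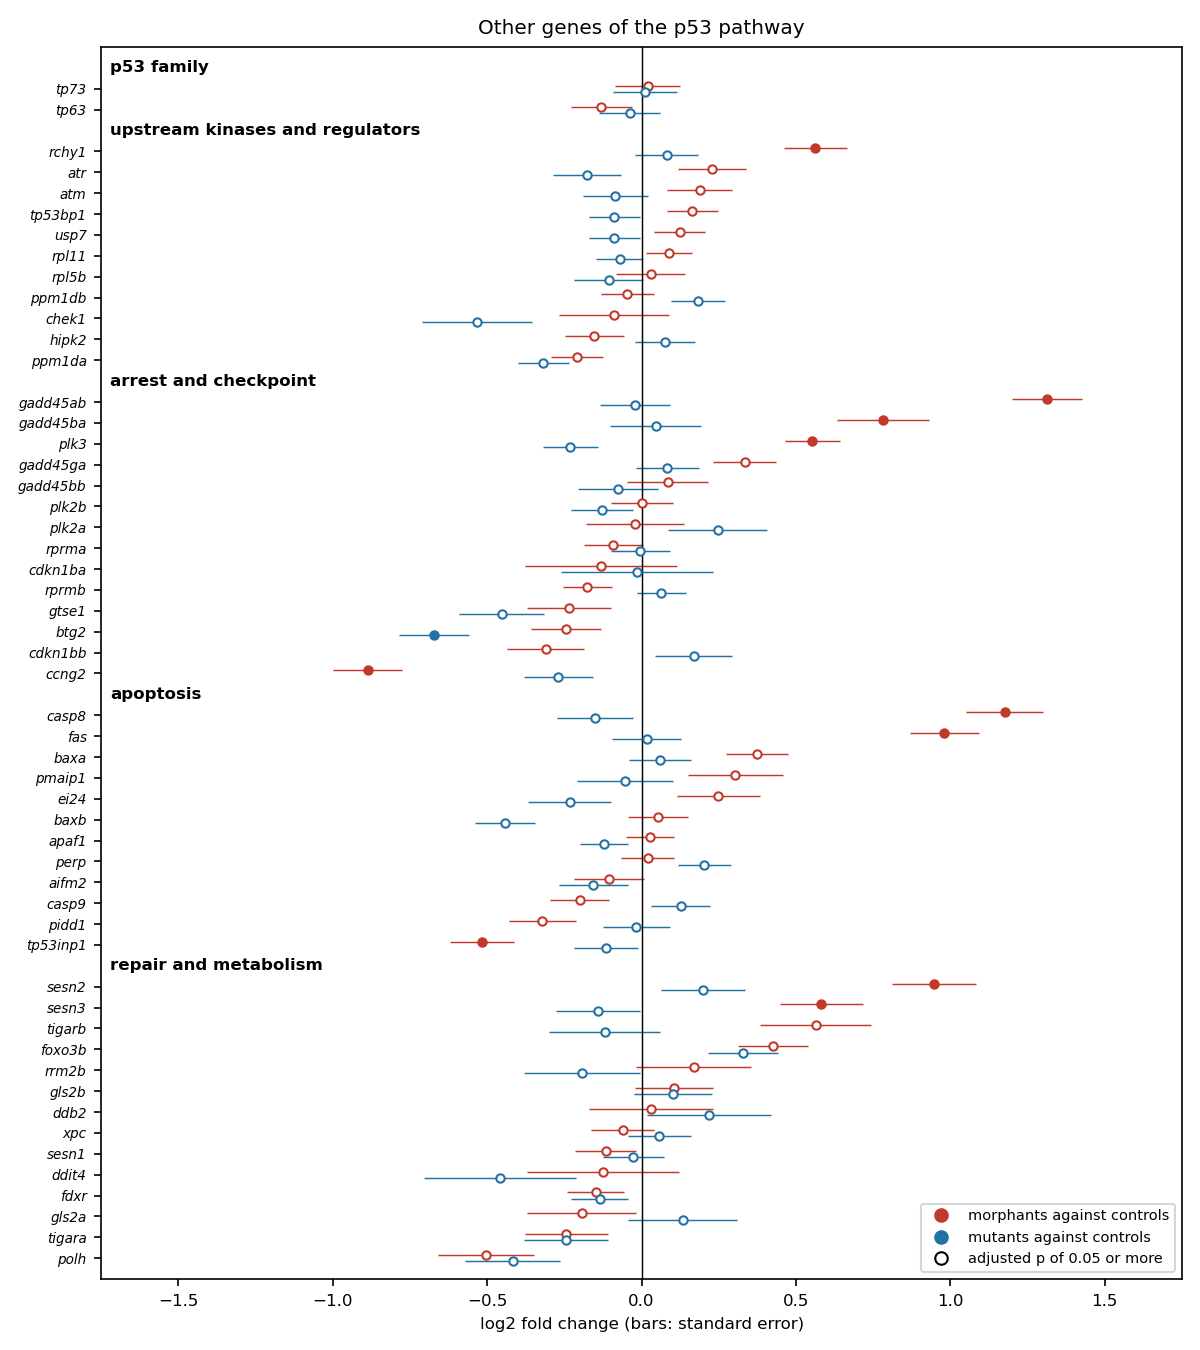
Log2 fold change (horizontal axis, bars are standard errors) of the 53 measured genes of the p53 pathway list, grouped by role from top to bottom, for morphants (red) and mutants (blue) against controls; filled points have a limma adjusted p below 0.05. In morphants 8 points to the right and 2 to the left of 0 are filled, and in mutants 1, *btg2*.

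Genes of dividing cells were set beside the arrest genes. Of 18 measured cell cycle genes of a list of 22, 0 rose and 1 fell in morphants against controls, and the median log2 change was -0.27. Over all probe sets 1.57% fell. The gene that fell was *cdk1*, the kinase that drives entry into mitosis, at 8.57, 8.43 and 8.86 in morphants and 8.97, 8.60 and 8.87 in mutants, against 9.18 and 9.11 in siblings and 8.99 and 9.24 in uninjected wildtype (log2 change in morphants -0.51, adjusted p = 0.048, limma). In mutants, where *cdkn1a* did not pass, 0 of 18 passed and the median was -0.45, with 14 lower at an unadjusted p below 0.05, as were 6.09% of all probe sets. In morphants 9 were lower at an unadjusted p below 0.05, as were 8.76% of all probe sets. In morphants against mutants 3 of the 18, the mitotic genes *aurka* (0.53, adjusted p = 0.0131), *birc5a* (0.53, adjusted p = 0.0338) and *plk1* (0.44, adjusted p = 0.0385), were higher and 0 were lower, where 7.5% of all probe sets were higher. These counts turned on single arrays. In morphants against controls the count was 2 without morphant replicate 3 and 0 when any array other than that and mutant replicates 1 and 2 was left out. In mutants it was 4 without mutant replicate 1, and in morphants against mutants it was 0 without mutant replicate 2 and 1 without replicate 3 of the mutants or replicates 1 or 3 of the morphants.

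A few tissue markers differed between morphants and the other groups. Of 25 measured marker genes, 1 rose and 3 fell in morphants against controls, where 3.59% of all probe sets rose and 1.57% fell. The lens crystallin *cryaa* changed by -1.48, the erythroid heme enzyme gene *alas2* by -0.81 and the neuronal tubulin gene *tubb5* by -0.62, and the heart myosin gene *myl7* by 0.49. Of the 2 probe sets of *tubb5*, the one with the higher mean was read, and the change of the other is not given. In morphants against mutants 1 rose and 5 fell, where 7.5% of all probe sets were higher and 6.11% lower, with log2 differences of -2.31 for *cryaa*, -1.34 for *alas2*, -0.62 for *tubb5*, -0.53 for the crystallin *cryba4*, -0.53 for the globin *hbae3* and 0.68 for *myl7*. In mutants against controls 0 of 25 passed, where 0.338% of all probe sets did. At an unadjusted p below 0.05 there were 4 higher and 1 lower. Of all probe sets 13.4% had such a p in either direction, and 6.09% were lower. The centred mean of the lens markers was -0.67 to -0.26 in morphants and 0.08 to 0.44 in mutants, against -0.15 to 0.24 in controls. The erythrocyte markers were at -0.47 to -0.25 in morphants and 0.23 to 0.38 in mutants, against -0.06 to 0.11 in controls, so that controls lay between morphants, which were lower, and mutants, which were higher. The neuronal markers were at -0.55 to -0.02 in morphants and 0.13 to 0.23 in mutants, against -0.01 to 0.14 in controls. In the means of these 3 lists morphants overlapped neither mutants nor controls, though for neurons the gap to controls was narrow. Of single probe sets, 17.8% did not overlap between morphants and controls and 35.4% between morphants and mutants, which is no baseline for means of several genes. Single markers did not all separate. The neuronal *elavl3* and *snap25a* and the lens gene *lim2.1* overlapped both groups, the globin *hbae1.1* overlapped controls and the lens gene *mipa* overlapped mutants. Unlike the other lens markers, *lim2.1* was slightly higher in morphants, by 0.09 against controls and 0.02 against mutants. The heart markers were at 0.17 to 0.23 in morphants and -0.20 to -0.10 in mutants, against -0.24 to 0.19 in controls. The heart gene *nppa* was not higher in morphants than in mutants (-0.03). Skeletal muscle was at -0.05 to 0.03 in morphants and -0.09 to 0.05 in mutants, against -0.06 to 0.07 in controls, and epidermis at -0.26 to 0.10 in morphants and 0.06 to 0.08 in mutants, against -0.25 to 0.20 in controls. The macrophage and neutrophil markers were at -0.07 to 0.00 in morphants and -0.22 to 0.02 in mutants, against -0.09 to 0.21 in controls. *apoa2*, the only marker of liver and yolk measured, was at -0.18 to -0.04 in morphants and 0.01 to 0.04 in mutants, against -0.02 to 0.11 in controls. For *apoa2* too, morphants overlapped neither mutants nor controls. The part of these shifts in the changes of the p53 targets was not tested.

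Outside these lists, the genes whose signals followed each of the 8 most closely over the 10 arrays were found by Pearson's r among the 8467 genes with a standard deviation of at least 0.2, as a description that again rests mostly on the morphants. *cdkn1a* was closest to *ttc4* (r = 0.99), *eif2b4*, a subunit of a translation initiation factor (0.99), and *si:dkey-204l11.1* (0.99). *mdm2* was closest to *aars1*, the alanyl-tRNA synthetase gene (0.99), *si:dkey-40h20.1* (0.98) and *igfbp1a*, an inhibitor of insulin-like growth factors (0.98). For *ccng1* these were *chrng*, the embryonic subunit of the muscle acetylcholine receptor (0.996), *ccdc86* (0.99) and *isg20* (0.99). *gadd45aa* was closest to *tent4b*, *mak16* and *slirp* (0.97 to 0.98), and *rps27l* to *trim63a*, a ubiquitin ligase of muscle, *taf1c*, a factor for transcription of ribosomal RNA, and *notum1a*, an inhibitor of Wnt signalling (0.99 each). *bbc3* and *phlda3* shared *socs3b*, an inhibitor of cytokine signalling (0.97 for both), as 1 of their 3, which rose by 0.98 in morphants against controls and changed by 0.16 in mutants. The others were *hbegfa* and *zgc:113278* for *bbc3* and *filip1l* and *snap23.2* for *phlda3*. *mdm4* was closest to *TRPM2* (0.95), *nherf4a* (0.94) and *gpr157* (0.93), with changes of -0.49, -0.44 and -0.40 in morphants against controls. None of the 8 genes was among another's 3 closest except *ccng1*, which was the third closest to *phlda3* (0.97).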

How the data were processed

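RNA of 10 pools of whole embryos was hybridized to GeneChip Zebrafish Gene 1.0 ST arrays. The deposited values are log2 signals of 75212 probe sets that the authors made, per their methods, by robust multi-array averaging (background correction, quantile normalization between arrays, summary of probes) with the oligo package. The submitters' processing notes name GCRMA, and no version is given in the sources used here. Quantile normalization makes array distributions equal, so a change is relative to the other genes. Values were used as deposited, with no filter.

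limma 3.58.1 in R 4.3.3 (lmFit and eBayes) fitted 3 groups with both kinds of wildtype pooled, as in the methods, and 4 groups for comparisons with each own wildtype. The fit of 3 groups had 7 residual and 3.13 prior degrees of freedom. Tests were two-sided with Benjamini-Hochberg adjustment over all probe sets. The number of arrays limits the precision, and the smallest two-sided exact permutation p for a single gene would be 0.0571 (3 against 4) or 0.1 (3 against 3), so none is given. The fits were also run on simulated independent normal values with added changes, which covers no effects shared between pools or genes. Symbols came from the array annotation, where 20806 probe sets had 1 symbol, and all 8 genes matched RefSeq symbols by Entrez ID. Named genes are the 8, listed genes that passed in any of the 3 main comparisons or, up to 4 a role, had large changes, and the 3 genes closest to each of the 8. *pmaip1*, *rps27.1* and *rps27.2* were added after their values were seen. The genes and lists were chosen with earlier results of these data known. Markers were of neurons, skeletal muscle, heart, erythrocytes, lens, epidermis, liver with yolk, and macrophages with neutrophils. The alternatives were the 2-fold rule, the methods' 2-group tests, limma on 2 groups, each wildtype alone, repeated quantile normalization, median centring, a dim probe set filter (4.95), probe sets with 1 symbol, another probe set per gene, a trended prior, array weights, the replicate block and each array left out. Tables and figures used Python 3.11.15, numpy 2.4.6, pandas 2.3.3 and matplotlib 3.10.9.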

Additional observations from a re-analysis of the deposited data

Results flagged for a closer look

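A stray control array was looked for in 28 genes, which are a part of the genes named in this report. Of these, 2 had 1 control array apart from the other 3, while chance alone gives such a gap in about 1 in 20 groups. *gadd45aa* was lowest in uninjected wildtype replicate 1 (4.83), with a gap to the nearest control of 0.902 of the whole range. *rps27l* was lowest in sibling wildtype replicate 1 (6.47), with a gap of 0.89 of the range. Both arrays lie on the side away from the morphants.

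For 9 of these 28 genes the change in morphants against uninjected wildtype differed from that in mutants against siblings by limma's test of the difference (adjusted p below 0.05). Of all probe sets 0.622% passed in the same direction. Listed genes were named because they passed a main comparison on these same arrays or had large changes, so that share is no baseline for this count. Among the p53 target genes the count was lower whichever array was left out. On the log2 scale the differences were 2.36 for *rps27l*, 2.00 for *mdm2*, 1.99 for *cdkn1a*, 1.48 for *phlda3*, 1.47 for *bbc3*, 1.42 for *casp8*, 1.35 for *gadd45ab*, 0.90 for *ccng1* and 0.87 for *isl2a*, the gene that the morpholino and the mutation are directed to (adjusted p = 0.0387, limma).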

How the results depend on the processing

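The direction of each of the 8 genes was the same under every alternative in morphants against controls and in morphants against mutants. In mutants 0 of 8 passed under each alternative, as in mutants against siblings and in siblings against uninjected wildtype. The 8 genes that passed in morphants against controls were 5 under the 2-fold rule, 5 by the methods' 2-group test (*mdm4*, *bbc3* and *phlda3* lost, adjusted p = 0.0619, 0.062 and 0.0653) and 7 to 8 with an array left out. In morphants against mutants they were 5 under the 2-fold rule and 7 to 8 with an array left out, and *mdm4* and *gadd45aa* were lost by the 2-group test (adjusted p = 0.165 and 0.0782). *mdm4* was also lost with the replicate block (adjusted p = 0.066) and with limma on the 2 groups alone (adjusted p = 0.0665). In morphants against uninjected wildtype 6 to 8 passed with an array left out. The 6 differences between changes were 2 to 5 with an array left out. With the replicate block they were 3. Deviations of same-numbered arrays from their group means had r of -0.097 to 0.223. The 2 arrays of each wildtype deviate as mirror images, so this check cannot settle whether the numbers pair the samples.

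For the pathway list, the 10 genes in morphants against controls were 2 under the 2-fold rule and 6 to 10 with an array left out, and the 15 in morphants against mutants were 2 and 9 to 14. The 1 gene in mutants became 0 under the 2-fold rule, repeated quantile normalization or the replicate block, 2 among probe sets with 1 symbol, and 0 to 1 with an array left out. For the cell cycle list, the 1 gene in morphants against controls became 0 under the 2-fold rule, median centring or the replicate block, 4 with repeated quantile normalization, 5 among probe sets with 1 symbol and 0 to 2 with an array left out. The 0 in mutants became 4 among probe sets with 1 symbol and 0 to 4 with an array left out, and the 3 in morphants against mutants became 0 under the 2-fold rule, 1 with the replicate block and 0 to 4 with an array left out. The cause was not tested.

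Some changes in mutants, all short of the threshold, turned sign. With uninjected wildtype alone, *mdm2* was at 0.023 and *bbc3* at 0.17. With siblings alone, *gadd45aa* was at -0.037, *phlda3* at -0.0086 and *rps27l* at 0.028, and with the replicate block *rps27l* was at 0.039. With an array left out they ran from -0.17 to 0.051 for *mdm2*, -0.077 to 0.18 for *gadd45aa*, -0.14 to 0.074 for *bbc3* and -0.11 to 0.075 for *rps27l*.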
